A study of Mus musculus with 6 samples.

Results

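To examine the signals that pancreatic cancer cells send to surrounding stroma and immune cells, the transcripts of 10 secreted factors were followed in KPC cells with and without knockdown of Brca2. The factors were chosen by name as chemokines and stroma-directed growth factors: Cxcl1, Cxcl2, Cxcl5, Cxcl16, Ccl20, Csf1, Lif, Pdgfa, Pdgfb and Vegfa. All 10 were present among the 10616 genes of the count table. KPC is an established mouse pancreatic ductal adenocarcinoma line. In shBrca2 cells (3 libraries) a lentiviral pLKO.1 vector delivered a short hairpin RNA against Brca2, and in shControl cells (3 libraries) the same kind of vector delivered a non-targeting hairpin. Per the study's methods both groups were selected with puromycin, grown in the same serum-containing medium and sorted for live cells, and poly(A) RNA was read at its 3' end. The wider study asked how loss of BRCA function in cancer cells shapes the fibroblasts around them. All 6 libraries come from 1 line in culture, without stroma, and the labels do not say whether libraries of a group are separate cultures, while supplementary text of the study gives n for these cultured cells in mice. What a replicate is therefore remains unclear, and p-values measure only the spread between these samples, which may be technical.

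Chemokines are small secreted proteins that guide leukocytes along a gradient. Cxcl1, Cxcl2 and Cxcl5 bind the receptor CXCR2 and recruit neutrophils. Cxcl16 is made as a membrane-anchored protein that is shed by the metalloproteases Adam10 and Adam17 and attracts lymphocytes bearing CXCR6, and Ccl20 attracts cells bearing CCR6. Csf1 sustains macrophages, Lif is an interleukin-6 family cytokine that activates STAT3 and is known as a signal from pancreatic cancer cells and stellate cells to each other, Pdgfa and Pdgfb are growth factors for fibroblasts and pericytes, and Vegfa acts on endothelium. Several of these genes are textbook targets of NF-kB, and Vegfa is a classical hypoxia target.

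Libraries held 1519340 to 2452467 counts, and 10532 to 10593 genes were detected in each. Values below are normalized counts, the deposited counts divided by a per-library size factor. Brca2 was 12.1 ± 1.61 (SD, n = 3) in shBrca2 and 36.5 ± 6.14 (n = 3) in shControl (log2 fold change -1.61, DESeq2 adjusted p = 0.0290). Counts at its 3' end could include the overlapping gene N4bp2l1. On the first principal component, which held 41.1% of the variance, the library shControl 3 lay at 38.0 and the other 5 between -22.0 and 13.6. The labelled cell type was checked against its markers. All 6 epithelial genes (Krt7, Krt8, Krt18, Krt19, Epcam, Cdh1) were present, with summed levels of 8045 to 8357 CPM (the gene's share of a library's counts, scaled to a common total) in shBrca2 and 8402 to 9176 in shControl. The sum rests mainly on Krt18, Krt19 and Krt8, and Epcam had a mean of only 6.52 normalized counts. Log2 fold changes were negative for 4 of the 6 and positive for 2, with Krt7 higher in shBrca2 (1.21, DESeq2 adjusted p = 2.07e-06). Of 9 fibroblast markers only Col1a2 was in the table (5.27 to 8.20 against 3.91 to 10.5 CPM), and none of 4 endothelial markers was. Of 8 leukocyte markers Cd14 and Cd68 were in the table, summing to 108 to 176 CPM in shBrca2 and 155 to 227 in shControl, while Ptprc, Csf1r, Lyz2, Adgre1, Cd3e and S100a8 were not analysed here. Most of this sum is Cd14 (log2 fold change -0.45, DESeq2 adjusted p = 0.523), and Cd68 was at 0.27 (0.960). In such bulk libraries fewer cells of a type and less RNA per cell cannot be told apart.

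Lif and Cxcl16 were lower in shBrca2 cells, at 0.464 and 0.578 times the shControl level, and no factor was called higher by the rule that follows. Each call was lost in some fits that left out 1 library (Lif in 4 of 6, Cxcl16 in 2 of 6). A gene was called where the adjusted p was under 0.1 (DESeq2 likelihood ratio test, Benjamini-Hochberg over all genes tested), the log2 fold change lay outside -0.5 to 0.5 and the mean over all libraries exceeded 5 normalized counts. By this rule 2 of the 10 factors were called lower, where 0.50% of 9997 tested genes (50 genes) were called lower and 1.27% were called in either direction. The 3 shBrca2 libraries lay below all 3 shControl libraries for 4 of the 10 factors (Cxcl16, Lif, Ccl20 and Pdgfb), against 10.4% of all tested genes, and above them for 1 (Cxcl2), against 10.2%. An unadjusted p under 0.05 was reached by 3 factors, all lower, where 412 of the 10616 genes (3.88%) reached it with lower values and 472 with higher. The median log2 fold change of the 10 was -0.12, with a range of -1.11 to 0.56, and that of all tested genes was 0.00 to 2 decimals. The remaining 8 factors did not pass the test. The factors were chosen with earlier results of these data known, so the shares above describe them and are not a test of the list.

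**Figure D1:**
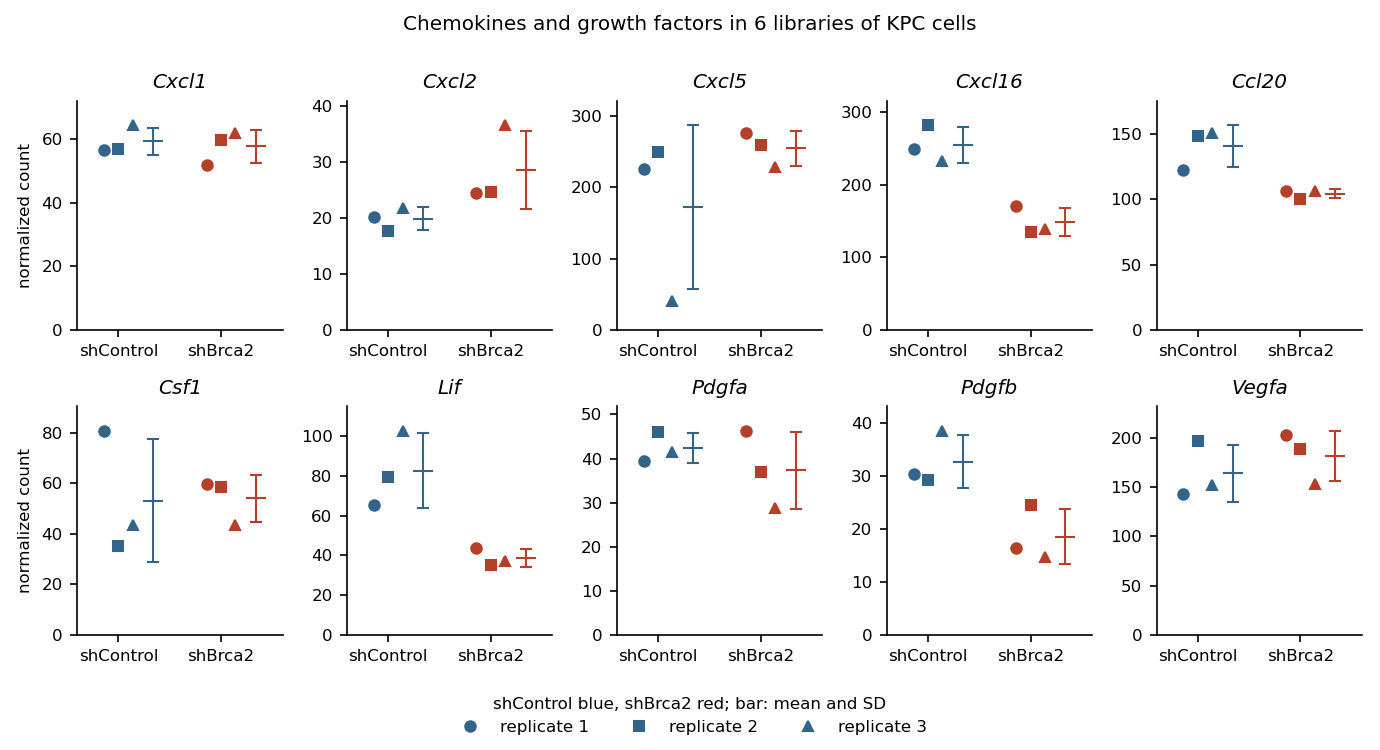
Normalized counts of the 10 factors in each of the 6 libraries (points, 1 marker shape per replicate number, which only names a library), with the mean and SD of each group beside them and every vertical axis starting at 0. Lif and Cxcl16 are lower in all 3 shBrca2 libraries than in any shControl library, and Cxcl5 has 1 shControl library, at 40.5, far below the other 5.

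**Figure D2:**
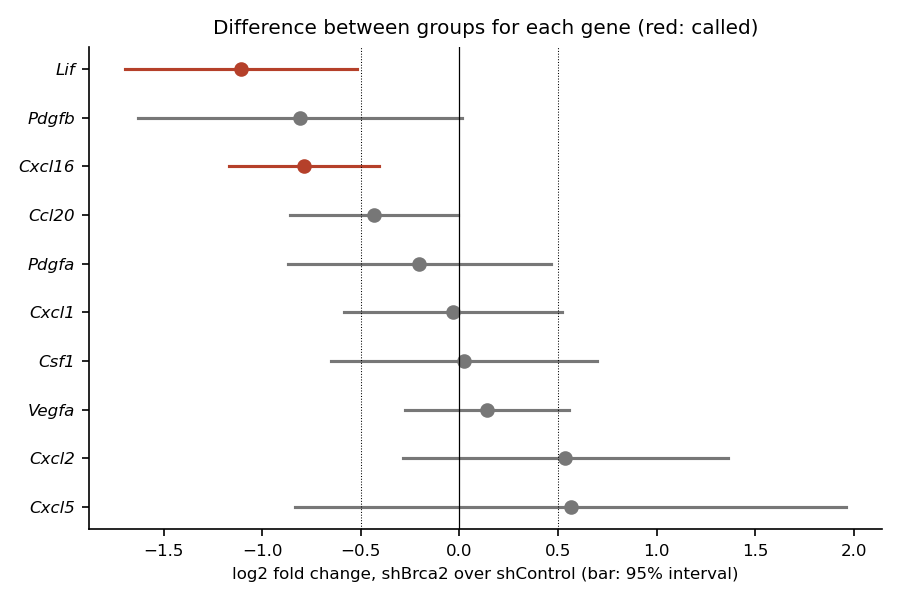
Log2 fold change of each factor, shBrca2 over shControl, with its 95% interval; red marks the called genes and dotted lines mark the fold change minimum of 0.5. The intervals of Lif, Cxcl16 and Ccl20 (-0.86 to -0.01, not called) lie wholly below 0, and those of the other 7 factors span 0.

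Lif (ENSMUSG00000034394, chr11:4257568-4272514, plus strand, GRCm38.p6) showed the lowest fold change of the 10. Its normalized counts were 43.6, 34.98 and 37.4 in shBrca2 and 65.7, 79.7 and 102.8 in shControl. The groups did not overlap, and the gap between the nearest libraries lay between 43.6 and 65.7. The means were 38.7 ± 4.44 (SD, n = 3) and 82.7 ± 18.8 (n = 3), a log2 fold change of -1.11 (SE 0.30, 95% interval -1.69 to -0.52, DESeq2 adjusted p = 0.0289). The raw counts behind these values were 32 to 43 in shBrca2 and 65 to 104 in shControl. The call was kept without shBrca2 1 (adjusted p = 0.0791) or shControl 1 (0.0234) and was lost without shBrca2 2 (0.163), shBrca2 3 (0.283), shControl 2 (0.215) or shControl 3 (0.309), always with Lif lower in shBrca2. No annotated gene overlaps Lif.

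Cxcl16 (ENSMUSG00000018920, chr11:70454389-70459984, minus strand) had 170.3, 135.2 and 139.2 normalized counts in shBrca2 and 249.6, 281.8 and 233.3 in shControl. Every shBrca2 library was below every shControl library. The means were 148.2 ± 19.2 (SD, n = 3) and 254.9 ± 24.6 (n = 3), a log2 fold change of -0.79 (SE 0.19, 95% interval -1.17 to -0.41, DESeq2 adjusted p = 0.00988). The call was lost without shBrca2 3 (adjusted p = 0.133) or shControl 2 (0.206) and kept without any of the other 4 libraries. At its 3' end Cxcl16 overlaps Med11, a Mediator subunit on the opposite strand, and use of strand in the counting is not given in the sources used here. Med11 had 122.2 ± 10.4 normalized counts in shBrca2 and 149.1 ± 21.2 in shControl (log2 fold change -0.29, adjusted p = 0.807).

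**Figure D3:**
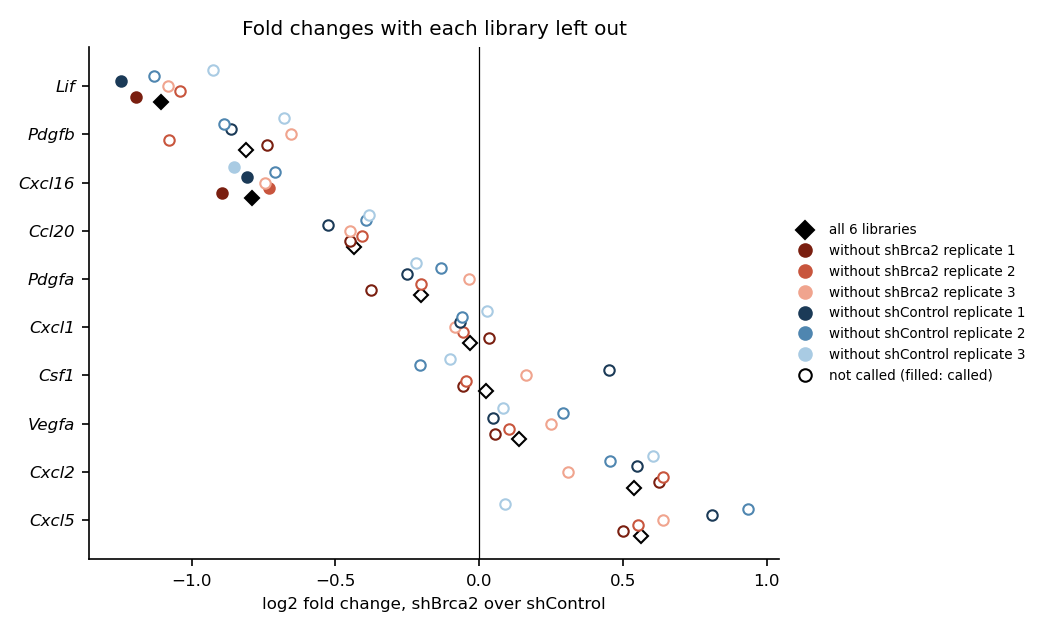
Log2 fold change of each factor, shBrca2 over shControl, with all 6 libraries and with each library left out in turn (filled symbols, called; open symbols, not called). Lif ranges from -1.25 to -0.92 and Cxcl16 from -0.90 to -0.71, while Cxcl5 moves from 0.56 to 0.09 without shControl 3 and Csf1 lies on both sides of 0.

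Ccl20 and Pdgfb were not called, although their groups did not overlap. Ccl20 (chr1:83116766-83119167, plus strand) had 106.2, 100.2 and 106.2 normalized counts in shBrca2 and 122.3, 148.4 and 151.3 in shControl. Its log2 fold change was -0.43 (SE 0.22, 95% interval -0.86 to -0.01), with an unadjusted DESeq2 p of 0.0459 and an adjusted p of 0.562. Both the fold change minimum and the adjusted threshold were missed. Pdgfb (chr15:79995865-80024614, minus strand) had 16.3, 24.6 and 14.8 normalized counts in shBrca2 and 30.3, 29.4 and 38.6 in shControl. Its log2 fold change of -0.81 (SE 0.42, 95% interval -1.63 to 0.01, DESeq2 adjusted p = 0.589) was close in size to that of Cxcl16, but its counts were lower and its error was larger.

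The neutrophil chemokines Cxcl5, Cxcl1 and Cxcl2 lie, with Cxcl3, in a 147 kb cluster on chr5:90759298-90905938, and their transcripts gave no called difference. Cxcl1 had 51.8, 59.6 and 61.8 normalized counts in shBrca2 and 56.6, 57.02 and 64.3 in shControl. The groups overlapped almost fully, with a log2 fold change of -0.03 and a 95% interval of -0.58 to 0.52 (DESeq2 adjusted p = 0.989). Cxcl2, whose start lies 12.7 kb from that of Cxcl1, had 24.5, 24.6 and 36.5 in shBrca2 and 20.2, 17.6 and 21.8 in shControl. Its shBrca2 libraries were all above its shControl libraries, and its log2 fold change of 0.54 had a 95% interval of -0.29 to 1.36 (DESeq2 adjusted p = 0.838). Cxcl2 and Cxcl3 transcripts share 165 stretches of 30 bases, 7.79% of those of Cxcl2, but 0 within the last 500 bases, the part nearest the 3' end. Cxcl3 itself had 23.0 ± 8.14 (SD, n = 3) against 35.7 ± 8.16 (n = 3), a log2 fold change of -0.61 (DESeq2 adjusted p = 0.755).

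Cxcl5 was the factor whose value depended most on 1 library. Its normalized counts were 276.5, 259.0 and 228.9 in shBrca2 and 226.3, 249.9 and 40.5 in shControl. The low library is shControl 3, with a raw count of 41 where shControl 1 and 2 had 224 and 298. With all libraries the log2 fold change was 0.56 (95% interval -0.83 to 1.96, DESeq2 adjusted p = 0.928). Without shControl 3 it was 0.09, and without shControl 2 it was 0.93. An antisense long non-coding RNA, Gm72413, overlaps the 3' end of Cxcl5.

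Csf1, Pdgfa and Vegfa were not called, and their groups overlapped. Csf1 had 59.9, 58.6 and 43.5 normalized counts in shBrca2 and 80.8, 35.2 and 43.5 in shControl, so that the shControl libraries held both the highest and the lowest value. Its log2 fold change was 0.02 (95% interval -0.65 to 0.70), and leaving out single libraries placed it between -0.21 and 0.45. The antisense long non-coding RNA Gm40121 overlaps the 3' end of Csf1. Pdgfa had 46.3, 36.9 and 28.7 in shBrca2 and 39.4, 46.1 and 41.5 in shControl, a log2 fold change of -0.20 (95% interval -0.87 to 0.46). Vegfa had 203.0, 189.1 and 153.1 in shBrca2 and 143.5, 197.1 and 152.3 in shControl, a log2 fold change of 0.14 (95% interval -0.28 to 0.55). These intervals, like that of Cxcl1, leave room for changes past the fold change minimum in at least 1 direction, so that these data do not show that the levels were alike.

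The stretches just upstream of the start site are shown for Lif and Ccl20, which had lower values in every shBrca2 library, and for Cxcl1 and Cxcl2, which did not, since all 4 carry the same kind of match. Each is the 250 bases before the start site in RefSeq GRCm38.p6, and capitals mark a match to the NF-kB consensus or to the AP-1 motif TGANTCA, searched on both strands.
Lif, chr11:4257318-4257567, plus strand: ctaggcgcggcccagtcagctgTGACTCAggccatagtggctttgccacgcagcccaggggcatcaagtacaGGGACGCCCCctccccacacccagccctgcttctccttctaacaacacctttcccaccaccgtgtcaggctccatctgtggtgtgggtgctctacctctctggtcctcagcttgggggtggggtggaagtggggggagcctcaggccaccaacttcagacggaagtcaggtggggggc
Ccl20, chr1:83116516-83116765, plus strand: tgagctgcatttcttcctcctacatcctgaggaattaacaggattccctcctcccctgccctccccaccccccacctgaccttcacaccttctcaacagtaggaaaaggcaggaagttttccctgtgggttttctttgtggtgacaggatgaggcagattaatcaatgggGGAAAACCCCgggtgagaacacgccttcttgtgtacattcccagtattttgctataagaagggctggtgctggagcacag
Cxcl1, chr5:90890995-90891244, plus strand: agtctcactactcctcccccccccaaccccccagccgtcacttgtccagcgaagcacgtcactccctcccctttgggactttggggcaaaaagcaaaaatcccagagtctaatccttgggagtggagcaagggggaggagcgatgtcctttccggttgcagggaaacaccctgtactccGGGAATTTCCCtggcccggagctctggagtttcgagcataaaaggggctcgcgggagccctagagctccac
Cxcl2, chr5:90903649-90903898, plus strand: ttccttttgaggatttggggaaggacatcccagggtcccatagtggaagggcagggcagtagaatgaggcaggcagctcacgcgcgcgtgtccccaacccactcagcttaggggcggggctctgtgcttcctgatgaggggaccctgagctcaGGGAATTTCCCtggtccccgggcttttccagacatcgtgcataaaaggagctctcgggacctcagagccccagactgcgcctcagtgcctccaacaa
The Lif stretch holds an AP-1 match that begins 228 bases before the start and an NF-kB match 178 bases before it, and the Ccl20 match begins 80 bases before the start. Cxcl1 and Cxcl2 hold the same 11 letters, GGGAATTTCCC, in which the consensus is met at overlapping positions, beginning 71 bases before the start in Cxcl1 and 97 in Cxcl2. RefSeq windows were at hand for 7 of the 10 factors (9 windows, as Pdgfa and Vegfa have more than 1), and the NF-kB consensus was present in 7 of the 9, in at least 1 window of each gene, against 7.25% of 32851 windows over all genes. AP-1 was matched in 1 of 9 windows against 6.75%, the hypoxia response core ACGTG in 2 of 9 against 16.6%, and the STAT motif TTCNNNGAA in 0 of 9 against 7.02%. No window was searched for Cxcl5, Cxcl16 or Pdgfb, so that Lif is the 1 called factor with a window. Several of these factors are textbook NF-kB targets, so the share with an NF-kB match describes a list that holds known targets and is not a test. A match is a run of letters and not evidence of binding, and among the factors with a window the NF-kB match was present in Lif and in the 6 that were not called.

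Related ligands from lists of the same families were read from the same fit. Of 26 other chemokines 8 were in the table and 7 had an adjusted p, of which 0 were called by DESeq2 or by edgeR. Of these 1, the monocyte chemokine Ccl2, had an unadjusted p under 0.05. Ccl2 had 10.9, 15.1 and 28.7 normalized counts in shBrca2 and 30.3, 39.4 and 39.6 in shControl, a log2 fold change of -0.96 (SE 0.43, DESeq2 adjusted p = 0.451) with groups that did not overlap. Its neighbour in function, Ccl7, had a base mean of 2.65 and was below the filter for an adjusted p. Of 6 other colony-stimulating and interleukin-6 family factors in the table, 0 were called and 0 had an unadjusted p under 0.05. On the log2 scale Il34 was at -1.23 (DESeq2 adjusted p = 0.833) and the cardiotrophin Ctf1 at -0.86 (0.840). Il34 had a base mean of 4.76, under the minimum of 5, so the rule could not call it. Of 4 other PDGF and VEGF family genes, 0 were called and 0 had an unadjusted p under 0.05. Pgf was at -0.92 (DESeq2 adjusted p = 0.901) and Pdgfc at 0.19 (0.943). The base mean of Pgf, 4.96, was also under that minimum.

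Most receptors for these factors were not in the table: of 13 listed, 5 were, and 0 were called by DESeq2 or by edgeR. The neuropilin Nrp2, a co-receptor for VEGF family ligands, was the 1 receptor with an unadjusted p under 0.05, at 80.3 ± 5.05 (SD, n = 3) in shBrca2 and 122.7 ± 15.9 (n = 3) in shControl (log2 fold change -0.61, DESeq2 adjusted p = 0.298). Nrp1 was at 0.53 (adjusted p = 0.879) and the VEGF receptor Flt1 at -0.06 (0.989). Lifr and Il6st, which together form the LIF receptor, were at -0.40 (0.935) and 0.08 (0.986). Csf1r, Pdgfra, Pdgfrb, Kdr, Cxcr1, Cxcr2, Cxcr6 and Ccr6 were not analysed here.

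Of 8 listed proteases that release or activate such ligands, 7 were in the table and 0 were called by DESeq2 or by edgeR. Pcsk6, a proprotein convertase, had an unadjusted p under 0.05, at 184.5 ± 34.8 (SD, n = 3) in shBrca2 and 119.3 ± 32.7 (n = 3) in shControl (log2 fold change 0.64, DESeq2 adjusted p = 0.284). Adam10 and Adam17, which shed Cxcl16, were at 0.67 (adjusted p = 0.659) and 0.25 (0.884). Adam10 had 70.8, 58.6 and 75.7 in shBrca2 and 63.7, 49.5 and 15.8 in shControl, so that its difference turned mainly on shControl 3.

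Of 23 listed genes of the NF-kB pathway 22 were in the table, and 1, Nfkbia, was called lower. Nfkbia encodes the inhibitor IkB-alpha and is itself an NF-kB target. Its normalized counts were 321.5, 322.3 and 238.4 in shBrca2 and 366.8, 453.7 and 552.7 in shControl, which did not overlap, a log2 fold change of -0.64 (SE 0.20, DESeq2 adjusted p = 0.0909). The call was not made by edgeR (adjusted p = 0.155), and of the 6 fits that left out a library only that without shControl 1 kept it, with adjusted p from 0.0181 to 0.689 over the 6. An unadjusted p under 0.05 was reached by 6 of the 22 with lower values in shBrca2 (27.3%) and by 1 with higher, where 3.88% of all genes in the table reached it with lower values. All 22 had an adjusted p, whereas the share over all genes also covers genes without one. This and the other lists were chosen with earlier results of these data known, so such shares are descriptions and not tests of a pathway. The lower ones were Nfkbia, the subunits Relb, Nfkb2 and Rela, and Tnip1 and Tnfaip2, and the higher one was the kinase Chuk (log2 fold change 0.51, adjusted p = 0.448). Relb had 38.1, 52.0 and 42.6 in shBrca2 and 68.7, 72.1 and 96.9 in shControl (log2 fold change -0.83, DESeq2 adjusted p = 0.209). The median log2 fold change of the 22 was -0.32. The range was wide, from -0.83 to 1.18, and 8 of the 22 had positive values. Nfkbia, called lower, encodes a brake on NF-kB, while Relb, Nfkb2 and Rela encode subunits of the factor itself. Nfkb2 and Rela were not called (DESeq2 adjusted p = 0.317 and 0.539). The subunit genes Nfkb1 and Rel went the other way and were not called either. Nfkb1 was at 0.39 (DESeq2 adjusted p = 0.640), with every shBrca2 library above every shControl library, and Rel was at 0.22 (0.959).

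**Figure D4:**
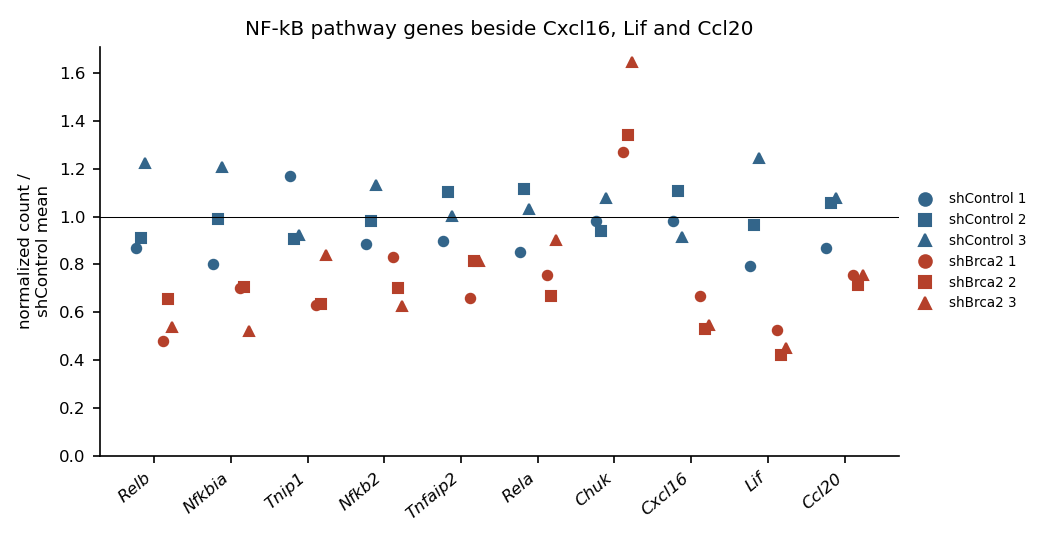
Normalized count in each of the 6 libraries (points), divided by the shControl mean of the gene, for the 7 NF-kB pathway genes with an unadjusted p under 0.05, by which they were chosen, and for Cxcl16, Lif and Ccl20; the line marks the shControl mean. Chuk is the 1 gene of the 10 with higher values in shBrca2, and shBrca2 and shControl libraries overlap for Rela.

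Of 17 hypoxia pathway genes in the table, 0 were called by DESeq2 or by edgeR and 2 had an unadjusted p under 0.05, both lower in shBrca2 (11.8% of the list, where 3.88% of all genes in the table reached this p with lower values). These were Ddit4, an inhibitor of mTORC1 signalling, at 230.0 ± 25.1 (SD, n = 3) against 326.8 ± 22.3 (n = 3) (log2 fold change -0.51, DESeq2 adjusted p = 0.178), and Ankrd37 (-0.84, 0.451). The list median was -0.14. Of 9 genes of LIF signalling through STAT3, 0 were called by DESeq2 or by edgeR and 1, the kinase Jak1, had an unadjusted p under 0.05 (log2 fold change 0.46, adjusted p = 0.343). Junb, a transcription factor gene downstream of STAT3, was at -0.26 (0.822), and the list median was -0.09. Over all 77 genes of these lists in the table, 0 were called higher and 1 lower, of 76 with an adjusted p, with a median of -0.12. This count is near the share of all tested genes called in either direction, 1.27%, of which 0.50% were called lower.

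**Figure D5:**
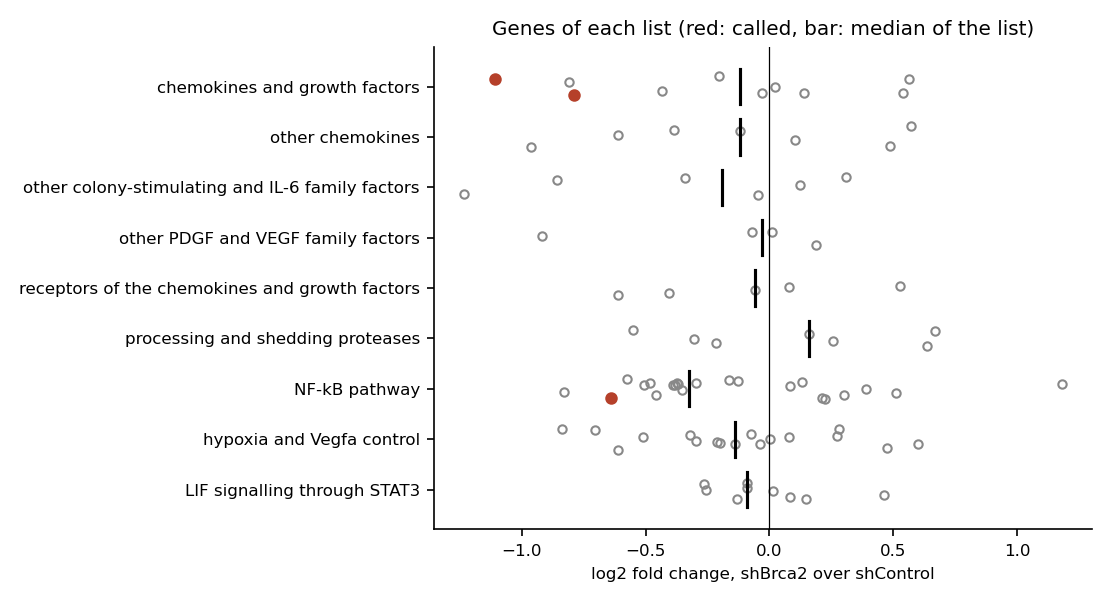
Log2 fold changes, shBrca2 over shControl, of the genes with an adjusted p in each list (points), with the list median. The NF-kB list has the lowest median, -0.32, the protease list has the 1 positive median, 0.16, and the 3 called genes are Lif, Cxcl16 and Nfkbia.

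The genes most like Lif and Cxcl16 were sought among 5680 other genes with a base mean of at least 50, by the root mean square difference of centred log2 normalized counts over the 6 libraries. The nearest to Cxcl16 were the histone deacetylase Hdac7 (difference 0.061, log2 fold change -0.72, DESeq2 adjusted p = 0.0193), the keratin Krt79 (0.085, -0.76, 0.0651) and the water channel Aqp1 (0.094, -0.66, 0.139). The nearest to Lif were the transporter Slc4a11 (0.182, -1.32, 0.00104), the lactate exporter Slc16a3 (0.195, -0.94, 0.0159) and the decapping enzyme Dcp2 (0.201, -0.72, 0.241). These genes were selected for their likeness, so their lower values in shBrca2 are a description.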

How the data were processed

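RNA-seq counts of 3 shBrca2 and 3 shControl libraries of KPC cells were analysed. The authors deposited raw counts per gene symbol, not normalized and not pooled. The submitters' processing notes name bcl2fastq, cutadapt, STAR 2.4.2a, HTSeq, DESeq2 and mm10. The study's methods name the MARS-seq protocol for these libraries. Annotation, and whether the counting used strand or molecular identifiers, are not given in the sources used here. The SE and intervals given here come from the DESeq2 fit and include the spread between libraries of a group, which may be technical. Groups came from the source name, and the labels give no batch. A batch correction is mentioned in the study's methods beside the thresholds for this comparison, but whether it covers these libraries is unclear, and no batch term was fitted. All genes were fitted with DESeq2 1.42.0 (R 4.3.3) by a likelihood ratio test of the group term, with median-of-ratios size factors and unshrunken fold changes, after the study's methods. Adjusted p exists for 9997 of 10616 genes. Intervals are the estimate with its normal 95% interval. Alternatives were edgeR 4.0.16 (quasi-likelihood), the Wald test, other scalings, filters and thresholds, and each library left out. The procedure was also run on data simulated from the model fitted here, with no library made to stand apart. That run cannot show how a library such as shControl 3 affects the calls. The factors and lists were chosen with earlier results of these data known. From the lists, called genes, receptors and the 2 genes with the smallest p per list were named. Besides these, the NF-kB genes with an unadjusted p under 0.05, Nfkb1, Rel, Adam10, Adam17, Cxcl3 and Nfkbiz were named after their values were seen. Positions, start-site windows and names came from RefSeq GRCm38.p6, the build of mm10, and overlaps and transcript stretches from GENCODE vM39.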

Additional observations from a re-analysis of the deposited data

How the results depend on the processing

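In the 6 alternatives that kept every library and changed the tool, scaling or filter, Cxcl16 (adjusted p 0.00720 to 0.0480) and Lif (0.0218 to 0.0580) were called, and at an adjusted p under 0.05 or without a fold change minimum the called factors were again Cxcl16 and Lif. Leaving out 1 library gave 0 to 2 called factors and 47 to 140 called genes, against 127 with all libraries, the lowest count being that without shBrca2 3. The 1 called gene of the pathway lists, Nfkbia, gave a count of 0 with edgeR (adjusted p = 0.155) and 0 at an adjusted p under 0.05, and 0 to 1 without a library. That 1 was Nfkbia without shControl 1 and Pcsk6 without shControl 3. Fewer samples enter each such fit. Signs reversed only for differences near 0: Cxcl1 ranged from -0.084 to 0.033 and Csf1 from -0.21 to 0.45 in log2 fold change as single libraries were left out. The log2 fold change of Brca2 stayed negative in those fits, and its call was lost without shBrca2 2 (adjusted p = 0.152), shBrca2 3 (0.233) or shControl 2 (0.371). Over the 10 factors, 104 of 116 values under other settings had the direction and call reported above, 6 lost the call and 6 reversed. Cxcl2, Pdgfb and the targeted gene Brca2 had no adjusted p with TMM factors or the filter of 10 counts in 3 libraries. No paired analysis was possible because the labels give the groups no shared replicate numbers: those used here follow the order of deposit and only name libraries. Of the 10 factors, counts were lowest for Cxcl2 and Pdgfb, where counting error is relatively largest.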

Other observations

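The library shControl 3, which stood apart on the first principal component, held the lowest normalized count of the 6 libraries for Cxcl5 at 40.5, the sheddase gene Adam10 at 15.8 and the NF-kB regulator gene Nfkbiz at 18.8. The other 5 libraries lay between 226.3 and 276.5 for Cxcl5, between 49.5 and 75.7 for Adam10 and between 36.9 and 58.6 for Nfkbiz. These genes were chosen after their values were seen. In the same library Lif, at 102.8, and Nfkbia, at 552.7, held the highest values of the 6.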
